A study of Brassica napus with 45 samples.

Results

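Leaves of a Brassica napus (rapeseed) line that overexpresses BnNAC038, overexpression line 1, were compared with wild type leaves after treatment with abscisic acid (ABA). The comparison took the 6 libraries that the sample titles name as line 1 or wild type with ABA, 3 of each, out of 45 libraries in the series. Of 100919 genes, the 39578 with a level of at least 1 TPM (a transcript's share of its library's RNA, corrected for transcript length and scaled to a fixed total) in at least 3 of these 6 libraries were tested. Both groups received 50 µM ABA, for 3 h by the column names, and the seedlings were grown in nutrient solution under long days. Line 1 differed from wild type by the overexpressed gene as the labels give it, and neither the promoter of the transgene nor the number of transformation events behind the line is given in the sources used here. By title the libraries are biological replicates, with no mention of separate plants or pools, so the p-values measure the spread between these libraries, which may be technical. Untreated leaves, leaves after 20% polyethylene glycol (PEG) for 6 h, and overexpression line 2 with ABA came from the same experiment and were read for comparison. Line 2 leaves untreated and with PEG helped to choose gene lists. A separate experiment gave the BnNAC038 knockout with ABA and its own wild type, untreated and with ABA. The labelled genotypes of the line 2 libraries give NAC genes of other numbers, although their titles give BnNAC038, so what line 2 overexpresses is uncertain, and its values are given with that limit.

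ABA is the hormone that plants accumulate when water is short. It binds receptors that block a group of phosphatases, which frees kinases that activate transcription factors, and in leaves it closes stomata and switches on protective genes. NAC proteins are a large family of plant transcription factors, several of which act in drought and ABA responses in Arabidopsis. Brassica napus joins an A and a C subgenome, from ancestors of Brassica rapa and Brassica oleracea, so most genes have a close relative on the other subgenome, and reads shared by near-identical copies may have been split between them. A RefSeq gene table of the Da-Ae assembly, with 123214 genes, held 0 of the deposited identifiers, so no names could be assigned. The level of BnNAC038 itself, ABA pathway genes and leaf cell type markers were for that reason not analysed here, and each gene below goes by its identifier. An identifier holds a chromosome and a number increasing along it, and a position below means this number with its final zeros dropped, not bases. In bulk leaf tissue, a lower value can be fewer cells of a type or less RNA per cell, and these cannot be told apart.

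Wild type ABA replicate 1 was the wild type library least like line 1. Pearson correlations of log2(TPM + 1) over the 39578 genes were 0.983 to 0.986 among the line 1 libraries, 0.976 to 0.979 among the wild type libraries and 0.959 to 0.973 between the groups. Replicate 1 of wild type had a mean correlation of 0.962 with line 1, against 0.971 for each of replicates 2 and 3. Within wild type it did not stand apart over all genes, with a mean correlation with the other wild type libraries of 0.978, against 0.977 for each of replicates 2 and 3. This was examined in lists of genes chosen from libraries without ABA. Genes were taken as line-only when they had at least 5 TPM in every untreated and PEG library of lines 1 and 2 and under 0.5 TPM in every untreated and PEG library of wild type, which gave 7 genes. The reverse rule gave 14 wild-type-only genes.

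All 7 line-only genes were listed at 0 in wild type ABA replicate 1 and were present in wild type ABA replicates 2 and 3. Their median level was 21.7, 23.5 and 23.9 TPM in line 1 replicates 1, 2 and 3 with ABA, against 11.1 TPM in wild type replicate 2 and 7.70 TPM in wild type replicate 3. As a share of the line 1 ABA mean, the median was 0.526 in replicate 2, with a range of 0.314 to 0.697, and 0.370 in replicate 3, with a range of 0.271 to 0.523. With limits of 10 and 0.2 TPM, 4 genes qualified and the median shares were 0.449 and 0.343. The wild-type-only genes had a lower median in wild type replicates 2 and 3 than in replicate 1. Their median level was 17.9 TPM in wild type replicate 1, 10.6 TPM in replicate 2 and 17.3 TPM in replicate 3, and the highest value of any of them in a line 1 library with ABA was 0.504 TPM. Relative to replicate 1, the median share was 0.480 in replicate 2, with a range of 0.228 to 1.16, and 0.754 in replicate 3, with a range of 0.531 to 1.37. Replicate 2 exceeded replicate 1 in 2 of the 14 genes and replicate 3 did so in 3. Wild type ABA replicates 2 and 3 thus held both kinds of gene at once. What brought line-only genes into these libraries was not tested.

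**Figure D1:**
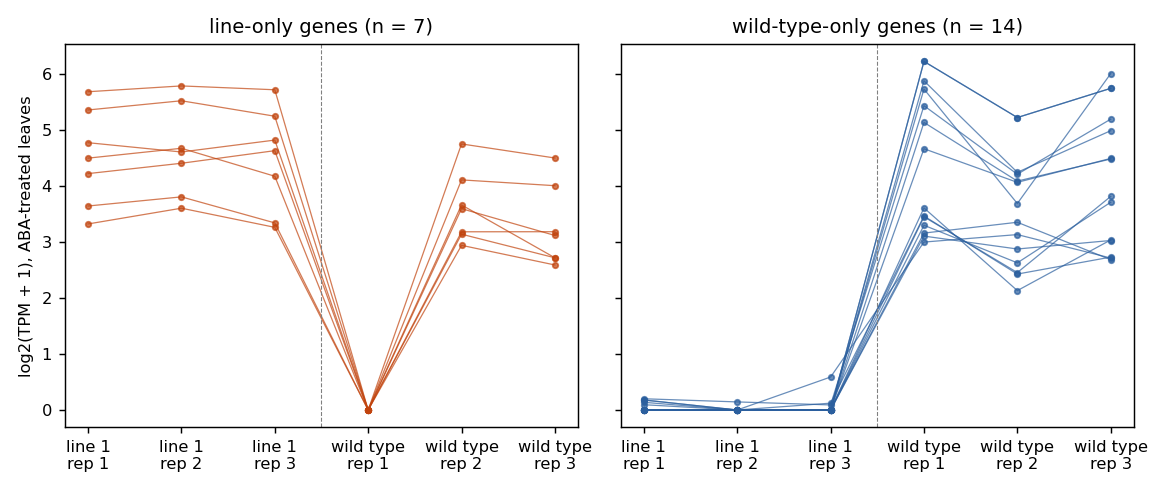
Level of each line-only gene (left, 7 genes) and each wild-type-only gene (right, 14 genes) as log2(TPM + 1) in the 6 ABA libraries, 1 line per gene. The line-only genes fall to 0 in wild type replicate 1 alone, and lie between that library and line 1 in wild type replicates 2 and 3.

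BnaA10G0187900ZS and BnaA02G0407700ZS had the highest levels among the line-only genes. BnaA10G0187900ZS measured 50.6, 54.5 and 51.9 TPM in the line 1 ABA libraries and 0, 26.0 and 21.7 TPM in wild type ABA replicates 1, 2 and 3. It was listed at 0 in every untreated wild type library, and at 55.5 ± 3.32 TPM (SD, n = 3) in untreated line 1. BnaA02G0407700ZS measured 40.2, 45.2 and 37.1 TPM in line 1 with ABA and 0, 16.3 and 15.1 TPM in wild type. In both genes the groups did not overlap, yet the wild type libraries spread so widely that limma called neither, with adjusted p = 0.337 and 0.279. Against wild type replicate 1 alone both were called, with log2 differences of 5.74 (SE 0.11, limma adjusted p = 0.00117) and 5.38 (SE 0.15, limma adjusted p = 0.00123). Of the 7 line-only genes, 0 were called against the 3 wild type libraries and 7 against replicate 1 alone. The 14 wild-type-only genes were called either way. Among them BnaA01G0301700ZS and BnaA01G0426800ZS carried identical values in every library of the overexpression experiment. There they form 1 signal that cannot be assigned to either copy. That signal measured 74.2, 36.5 and 52.9 TPM in wild type with ABA and 0.132, 0 and 0 TPM in line 1.

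With all 3 wild type libraries, limma on log2(TPM + 1) called 349 genes at a Benjamini-Hochberg adjusted p under 0.05, which was 0.882% of the genes tested. Of these, 94 were higher in line 1 (0.238%) and 255 were lower (0.644%). An unadjusted p under 0.05 was reached by 5951 genes. The median difference over all tested genes was -0.02 on the log2 scale. Higher genes had a median difference of 1.09, 54 of them at least 2-fold and 11 at least 4-fold. Lower genes had a median size of 1.48, 195 of them at least 2-fold and 73 at least 4-fold, and 68 were under 0.5 TPM in all 3 line 1 libraries. The called set depended on single libraries: it held 146, 77 and 138 genes without line 1 replicate 1, 2 or 3 and 199 without wild type replicate 1. With the spread estimated over all 27 libraries of the experiment the count was 1034 (2.61%), 480 higher (1.21%) and 554 lower (1.4%).

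Against wild type replicate 1 alone, over the same genes, 560 were called (1.41%), 289 of them higher in line 1 (0.73%) and 271 lower (0.685%). In this fit the spread came from the 3 line 1 libraries, and the lone wild type library was assumed to vary like them. Higher calls thus went from 94 to 289 and lower calls from 255 to 271, and 196 genes were called in both fits. The median size of the higher calls was 1.78 and that of the lower calls 1.78. With the spread of the other groups of the experiment, replicate 1 alone gave 859 calls (2.17%), 467 higher (1.18%) and 392 lower (0.99%). Without line 1 replicate 2 or 3 the 560 fell to 125 or 151.

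The largest higher difference was in BnaA03G0308300ZS. Its levels were 27.2, 31.6 and 27.6 TPM in line 1 with ABA, and it was listed at 0 in all 3 wild type libraries. The log2 difference was 4.90 (SE 0.10, limma adjusted p = 6.71e-06). Line 2 with ABA did not share this level, at 0.788, 3.65 and 0 TPM. In untreated leaves line 1 measured 16.8 ± 5.32 TPM (SD, n = 3) and wild type was again listed at 0, so the difference was present without ABA. The next was BnaA07G0038200ZS, at 20.2, 30.7 and 24.0 TPM in line 1 against 1.40, 2.75 and 1.28 TPM in wild type, with 21.2, 21.1 and 11.3 TPM in line 2. Wild type stayed far below every library of either line, and the limma adjusted p for line 1 was 0.00203.

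The largest lower difference was in BnaA04G0023300ZS, on chromosome A04. Wild type with ABA measured 480, 213 and 289 TPM in replicates 1, 2 and 3, and line 1 measured 0.546, 0.837 and 0.521 TPM. The log2 difference was -7.57 (SE 0.27, limma adjusted p = 8.25e-05), and line 2 with ABA was as low, at 0.496, 0.243 and 0.254 TPM. Untreated leaves had a similar gap, with 437 ± 18.2 TPM in wild type and 0.343 ± 0.301 TPM in line 1 (SD, n = 3 each). BnaA04G0056400ZS, on the same chromosome, measured 356, 168 and 230 TPM in wild type and 2.08, 1.30 and 2.24 TPM in line 1 with ABA. Its log2 difference was -6.40 (SE 0.27, limma adjusted p = 0.000137), and line 2 with ABA measured 3.76, 2.85 and 2.91 TPM. In both genes wild type replicate 2 had the lowest of the 3 wild type values and replicate 1 the highest. The line 2 values are set against the same wild type libraries, so they are not a separate test.

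Most of the genes called under ABA were also called in untreated leaves, which come from separate libraries. Untreated, line 1 differed from wild type in 2056 of 40135 genes (5.12%), higher in 2.68% and lower in 2.44%, and with PEG in 1132 of 41866 (2.7%). Of the 349 genes called under ABA, 314 were tested in untreated leaves and 216 were called there in the same direction, 37 of the higher and 179 of the lower genes, while 0 were called in the opposite direction. These 216 were 61.9% of the ABA calls and 10.5% of the untreated calls. With PEG, 195 were called in the same direction and 0 in the opposite one. In the direction of the ABA difference, the median log2 difference was 1.34 with ABA over the 349 genes. It was 1.24 untreated over the 314 tested there, and 1.36 with PEG over the 329 tested there. With wild type replicate 1 alone, 430 of 560 (76.8%) were called alike in untreated leaves, 212 of the higher and 218 of the lower genes, and 0 in the opposite direction. These were 20.9% of the untreated calls.

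**Figure D2:**
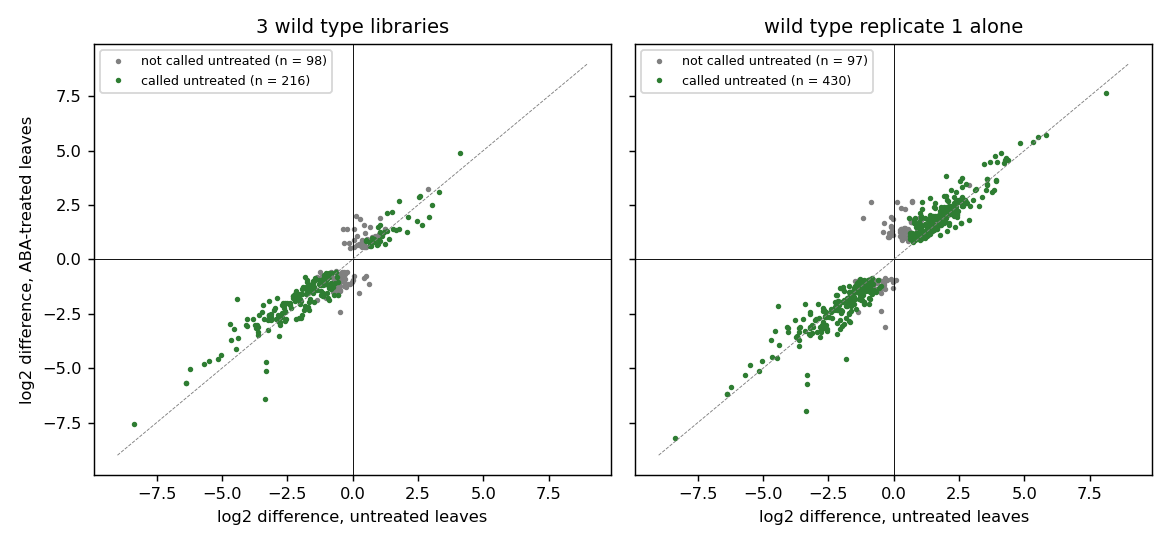
Log2 difference between line 1 and wild type in untreated leaves (horizontal axis) against that with ABA (vertical axis) for genes called with ABA and tested untreated, using 3 wild type libraries (left) or replicate 1 alone (right). Green points were also called untreated (216 and 430), grey points were not, and the dashed line marks equal differences.

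Line 1 was then set against each wild type library in turn over genes with a standing difference between the genotypes. These were genes called with at least a 4-fold difference in the same direction in both untreated and PEG leaves, 73 higher and 78 lower in line 1, a list made after earlier values were seen. Their ABA values played no part in the choice. Some list members, such as BnaA04G0242600ZS and BnaC07G0210000ZS, had the same differences throughout, so a signal shared by copies can count more than once. For the 73 higher genes the median log2 difference with ABA was 2.78 against wild type replicate 1, 0.91 against replicate 2 and 1.25 against replicate 3, beside 2.78 in untreated leaves and 3.00 with PEG. For the 78 lower genes it was -3.12, -2.13 and -2.67 against the same libraries, beside -2.95 untreated and -3.12 with PEG. Replicate 1 therefore gave differences of the size seen in the other conditions, and replicates 2 and 3 gave smaller ones, more so for the higher genes. Of the 73 higher genes 72 were tested, and 4 were called with 3 wild type libraries and 64 with replicate 1 alone, where 0.238% and 0.73% of all tested genes were called higher. Of the 78 lower genes 74 were tested, and 70 and 71 were called, where 0.644% and 0.685% of all tested genes were called lower.

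**Figure D3:**
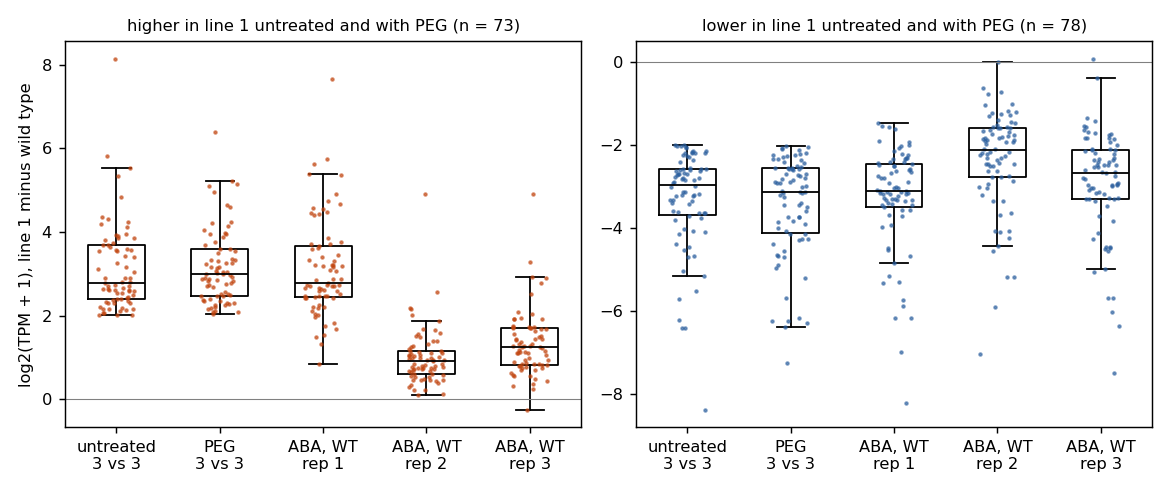
Log2 difference between line 1 and wild type for the 73 genes higher (left) and 78 genes lower (right) in line 1 in both untreated and PEG leaves, as points with boxes for the median and quartiles. The first 2 boxes compare group means, and the other 3 compare the line 1 ABA mean with each wild type ABA library. The medians of the higher genes drop from 2.78 against replicate 1 to 0.91 and 1.25 against replicates 2 and 3.

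The spread among libraries was also read. Over all tested genes the median SD of log2(TPM + 1) was 0.158 in wild type with ABA and 0.127 in line 1 with ABA. Among the 757 tested genes that were called with at least a 2-fold difference in untreated leaves, it was 0.466 in wild type with ABA, against 0.160 in line 1 with ABA, 0.187 in untreated wild type and 0.252 in wild type with PEG. Calling genes in untreated leaves favours those with a small spread there, so the untreated value is partly fixed by the choice, while the ABA and PEG libraries took no part in it.

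Part of the calls under ABA were not made in the other conditions. Of the 349 genes, 102 were called in neither untreated nor PEG leaves in the same direction, 45 of them higher and 57 lower, with a median size of 0.95. Genes not tested in a condition count here as not called, and 314 of the 349 were tested untreated and 329 with PEG. Chromosome A08 held 20 of the 102, 15 of them lower, beside 37 of all 349. An unadjusted p above 0.05 in both other conditions was found for 23 genes, 12 higher and 11 lower. Genes were named from these if they had at least a 2-fold difference, a mean of at least 5 TPM and groups that did not overlap. The 2 largest lower differences were in BnaA08G0008100ZS and BnaC04G0104100ZS, and no higher gene met these limits. BnaA08G0008100ZS measured 2.85, 3.49 and 5.54 TPM in line 1 and 10.9, 9.78 and 11.2 TPM in wild type with ABA, a log2 difference of -1.26 (SE 0.19, limma adjusted p = 0.0374). Line 2 with ABA lay with wild type, at 13.2, 11.6 and 11.1 TPM. BnaC04G0104100ZS measured 4.99, 4.47 and 4.44 TPM in line 1 and 8.85, 14.4 and 11.7 TPM in wild type, a log2 difference of -1.15 (SE 0.17, limma adjusted p = 0.0322), and 12.1, 8.28 and 15.5 TPM in line 2. Neither was called against wild type replicate 1 alone, with limma adjusted p = 0.19 and 0.0846. A gene that passes one threshold and misses another is not shown to differ between conditions, and the test of that difference comes next.

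The interaction asked whether the response to ABA, ABA minus untreated, differed between line 1 and wild type. It was called in 7 of 43150 genes (0.0162%), 5 with a higher (0.0116%) and 2 with a lower response (0.00463%) in line 1, and 3296 genes had an unadjusted p under 0.05. The largest differences in response were these. BnaA04G0056400ZS went from 32, 33 and 34.3 TPM untreated to 356, 168 and 230 TPM with ABA in wild type, while line 1 went from 3.50, 1.62 and 2.23 to 2.08, 1.30 and 2.24 TPM. Every wild type library was higher with ABA than untreated and line 1 was low in both conditions, with a difference in response of -3.06 (SE 0.36, limma adjusted p = 0.0313). BnaA06G0012800ZS went the other way in wild type, from 42.1, 60.5 and 41.8 TPM untreated to 5.11, 5.27 and 1.90 TPM with ABA. In line 1 it was low in both conditions, at 2.01, 1.5 and 1.79 TPM untreated and 1.35, 0.812 and 1.51 TPM with ABA, so the difference in response was 3.01 (SE 0.38, limma adjusted p = 0.0379). BnaC01G0226400ZS was listed at 0 in all 6 line 1 libraries, and wild type measured 19.9, 20.3 and 21.3 TPM untreated and 3.42, 1.09 and 3.82 TPM with ABA (difference in response 2.6, SE 0.34, limma adjusted p = 0.0467). BnaC07G0447100ZS rose with ABA in line 1, from 4.66, 3.57 and 4.15 to 11.6, 9.09 and 5.91 TPM. In wild type it fell from 9.44, 10.3 and 11.5 to 4.50, 4.05 and 3.78 TPM (difference in response 2.07, limma adjusted p = 0.0379). BnaA03G0251500ZS rose from 0 in all untreated line 1 libraries to 19.3, 27.3 and 24.3 TPM with ABA. Wild type went from 0.318, 0 and 0.293 to 7.44, 6.25 and 5.08 TPM (difference in response 2.02, limma adjusted p = 0.0313).

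BnaC01G0155000ZS was the gene among the 7 in which the genotypes differed untreated and overlapped with ABA. Untreated, it measured 29.4, 23.1 and 25.5 TPM in line 1 and 4.07, 6.30 and 3.71 TPM in wild type. With ABA it measured 19.5, 12.3 and 14.9 TPM in line 1 and 14, 19.5 and 18.3 TPM in wild type, a difference in response of -2.42 (SE 0.28, limma adjusted p = 0.0313). The interaction counts were set by single libraries. Without wild type ABA replicate 1 the count was 125, 101 of them with a lower response in line 1, and without wild type ABA replicate 2 it was 11. It was 2, 0 and 1 without line 1 ABA replicate 1, 2 or 3, it was 0, 0 and 1 without line 1 untreated replicate 1, 2 or 3, and it was 0, 3 and 3 without wild type untreated replicate 1, 2 or 3.

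Genes that respond to ABA in another wild type were looked up as a group. The wild type of the knockout experiment, whose libraries are separate, changed with ABA in 53.2% of its tested genes and had 2315 genes raised at least 2-fold and 3748 lowered at least 2-fold by ABA. Its calls were uneven, with 5313 higher and 14479 lower, and the median over all 37232 tested genes was -0.24 on the log2 scale. The unit of these values is not stated, and whether their scaling moved genes into or out of the lists was not tested. Of the raised genes, 2075 were tested in line 1 against wild type with ABA, and 21 were higher and 21 lower in line 1 (2.02% called, against 0.882% of all genes). Their median difference was 0.07 on the log2 scale with 3 wild type libraries and -0.0194 with replicate 1 alone, so its sign depended on the wild type library. Of the lowered genes, 2728 were tested, 4 were higher and 9 lower (0.477%), with a median of -0.07, and -0.04 with replicate 1 alone. Against replicate 1 alone, where 1.41% of all genes were called, 13 of the raised genes were higher and 23 lower, and 43 of the lowered genes were higher and 13 lower. The balance of higher and lower calls among the lowered genes thus also turned with the wild type library. Within the overexpression experiment, the raised genes had a median ABA response of 1.53 in wild type and 1.59 in line 1, and the lowered genes -0.55 and -0.57. The interaction was called in 1 of the 2075 raised and 1 of the 2728 lowered genes, beside 0.0162% of all genes.

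Among the ABA-raised genes, BnaA02G0408600ZS measured 13.0, 9.37 and 10.9 TPM in line 1 and 3.12, 3.37 and 3.40 TPM in wild type with ABA, a log2 difference of 1.48 (SE 0.13, limma adjusted p = 0.00583). It was nearly off in untreated leaves, with 0.302 ± 0.0503 TPM in line 1 (SD, n = 3). Line 2 with ABA had 11.6, 10.7 and 10.3 TPM. BnaA02G0370900ZS measured 55.4, 41.6 and 48.4 TPM in line 1 and 12.6, 22.1 and 19.7 TPM in wild type (log2 difference 1.40, SE 0.21, limma adjusted p = 0.035). Both had every line 1 library above every wild type library. With PEG both were higher in line 1 too, by log2 differences of 1.98 and 2.80 (limma adjusted p = 0.00276 and 7.41e-05). BnaA02G0370900ZS also differed untreated, at 12.6 ± 0.962 TPM in line 1 and 3.66 ± 0.554 TPM in wild type (SD, n = 3 each). Its interaction was not called (limma adjusted p = 0.957). By identifier, both genes lie in A02 blocks called higher in untreated line 1, at positions 4066 to 4193 and 3648 to 3767. On the lower side, after BnaA04G0056400ZS, came BnaC02G0546200ZS, which was listed at 0 in all line 1 and line 2 libraries with ABA and measured 24.5, 15.8 and 21.6 TPM in wild type. It was called with limma adjusted p = 8.25e-05, and was listed at 0 in untreated line 1 as well.

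Among the ABA-lowered genes, BnaA08G0009900ZS measured 9.63, 11.7 and 7.20 TPM in line 1 and 2.66, 0.435 and 1.22 TPM in wild type with ABA (log2 difference 2.19, SE 0.33, limma adjusted p = 0.0362), while line 2 had 2.73, 0.320 and 0.663 TPM. BnaA04G0155000ZS measured 9.03, 9.05 and 3.82 TPM in line 1, 1.34, 0.349 and 0.814 TPM in wild type and 1.66, 0.615 and 1.04 TPM in line 2 (log2 difference 2.14, SE 0.32, limma adjusted p = 0.0369). For both genes line 1 was above wild type in every library and line 2 lay in the range of wild type or close to it. Both were also called higher in untreated line 1, by log2 differences of 1.52 and 1.30 (limma adjusted p = 0.0135 and 0.00209), and with PEG. The interaction was called in neither (limma adjusted p = 0.821 and 0.664). Neither gene was called against wild type replicate 1 alone, with log2 differences of 1.5 and 1.75. BnaA01G0412800ZS was listed at 0 in line 1 and line 2 with ABA and measured 7.63, 6.35 and 7.17 TPM in wild type, about as evenly as in untreated wild type (16.1 ± 0.714 TPM, SD, n = 3). BnaA01G0373400ZS measured 6.49, 5.28 and 5.92 TPM in line 1 and 55.1, 19.3 and 53.1 TPM in wild type, a log2 difference of -2.52 (SE 0.37, limma adjusted p = 0.033). Wild type replicate 2 was again the lowest wild type library.

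Called genes were spread unevenly over the chromosomes. The percentage called was highest on A04 (3.79%, 4 higher and 42 lower), A08 (2.51%, 8 higher and 29 lower) and A01 (2.11%, 4 higher and 34 lower), and lowest on A09 (0.327%). It was 1.2% over the A subgenome and 0.61% over the C subgenome. Against wild type replicate 1 alone the order changed. A04 had 6.6%, A01 4.22% and A02 2.96%, and A02 went from 9 higher and 9 lower genes to 42 higher and 6 lower. A08 went the opposite way, from 2.51% to 0.679%.

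**Figure D4:**
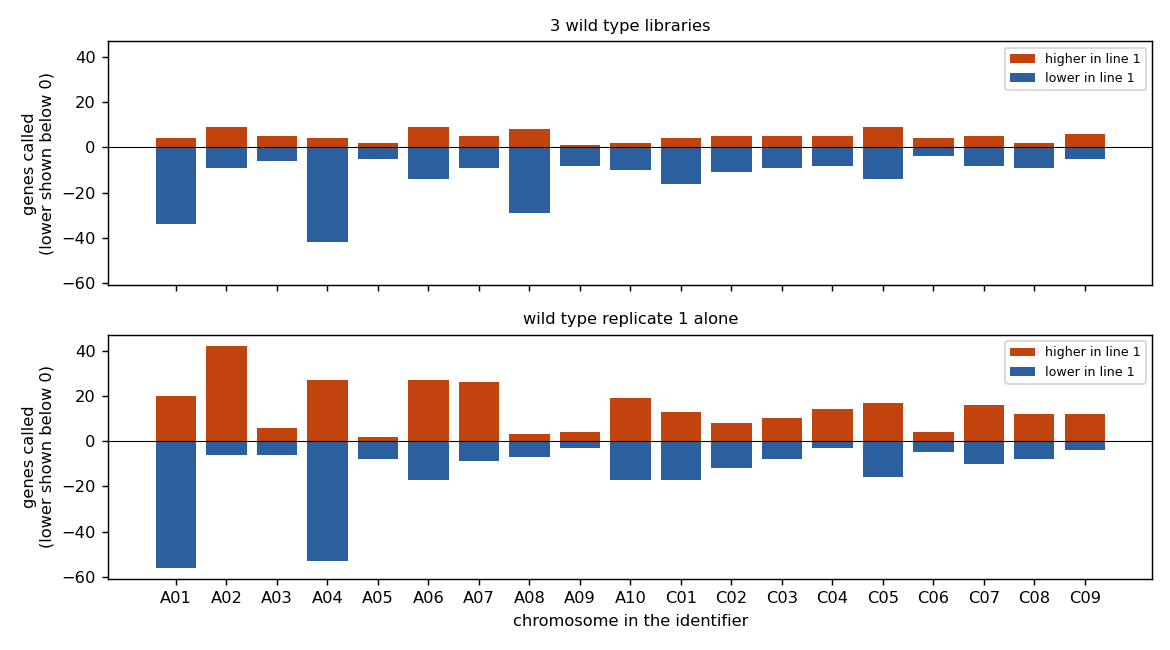
Number of genes called higher (above 0) and lower (below 0) in line 1 with ABA on each chromosome, using 3 wild type libraries (top) or replicate 1 alone (bottom). A04 and A01 lead in lower genes in both panels, the 42 higher genes of A02 appear with replicate 1 alone, and the 29 lower genes of A08 appear with 3 wild type libraries.

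Within chromosomes, part of the calls lay in runs of neighbouring genes. Blocks of 50 consecutive tested genes were made in untreated leaves, and 12 of 783 blocks had at least 30% of their genes called in 1 direction there. In the ABA libraries, these 12 blocks held 69 of the 349 calls among 572 tested genes (12.1%), against 0.718% of the genes outside them, where the other 280 calls lay. Of 772 blocks made in the same way in the ABA libraries, 2 had at least 20% of their genes called, on A04 and A08. The 12 blocks chosen in untreated leaves lay on A01, A02, A04, A06, A07 and A08, and 5 of them were on A04. The A04 block at positions 479 to 577 summed to 307, 326 and 308 TPM in line 1 with ABA and to 906, 578 and 703 TPM in wild type, and 9 of its 43 genes were called lower. The A01 block at positions 3672 to 3767 summed to 701, 804 and 742 TPM in line 1 and to 1251, 901 and 1241 TPM in wild type. In both blocks wild type replicate 2 was nearest to line 1. The A01 block held BnaA01G0375600ZS, listed at 0 in every line 1 library and at 52.4, 11.9 and 63.6 TPM in wild type with ABA.

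The A02 block at positions 4066 to 4193 was higher in line 1. It summed to 1518, 1518 and 1431 TPM in line 1 with ABA and to 943, 1249 and 1068 TPM in wild type, and held the line-only gene BnaA02G0407700ZS. Of its 53 genes, 1 was called higher with 3 wild type libraries and 18 with replicate 1 alone. An A07 block at positions 2929 to 3025 summed to 1568, 1613 and 1546 TPM in line 1 and to 1045, 1329 and 1198 TPM in wild type. Its largest difference, in BnaA07G0296000ZS, was 86.9, 114 and 116 TPM in line 1 against 15.2, 39.1 and 37.7 TPM in wild type (limma adjusted p = 0.0633, and 0.0101 with replicate 1 alone). In 10 of the 12 blocks, these 4 among them, the SD of the block sum with ABA was smaller in line 1 than in wild type. The exceptions were an A06 block at positions 2925 to 2993, with 1661, 1505 and 1313 TPM in line 1 and 1110, 1141 and 1086 TPM in wild type, and a block on A08.

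The A08 block, at positions 2 to 93, summed to 507, 626 and 979 TPM in line 1 replicates 1, 2 and 3 with ABA and to 2022, 1807 and 1971 TPM in wild type, so that here the line 1 libraries were the uneven ones. All 3 line 1 libraries were below all 3 wild type libraries in 47 of its 50 genes, with a median log2 difference of -1.19, and 17 genes were called lower. Over all tested genes, 12% had line 1 below wild type in this way. The next block along A08 had a median of -0.15. Line 1 was also uneven here in the other conditions, with sums of 1302, 1098 and 880 TPM untreated and of 701, 397 and 1396 TPM with PEG. Line 2 with ABA stayed near wild type, at 1753, 1867 and 1912 TPM. Against replicate 1 alone, 0 of the 50 genes were called although the median was -1.20, with the spread then taken from line 1. BnaA08G0000200ZS had the largest difference, at 1.97, 3.71 and 5.20 TPM in line 1 and 16.0, 11.8 and 18.1 TPM in wild type. The gene BnaA08G0008100ZS, described above among those not called untreated or with PEG, lies in this block.

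**Figure D5:**
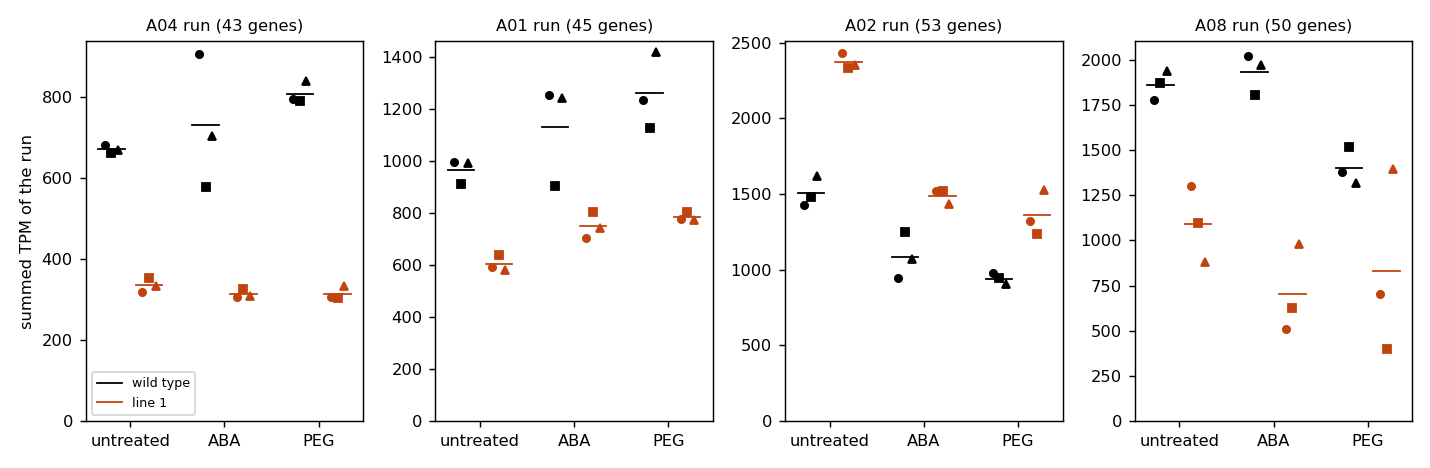
Summed TPM of 4 blocks of neighbouring genes in untreated, ABA and PEG leaves of wild type (black) and line 1 (orange), with circles, squares and triangles for replicates 1, 2 and 3 and a bar for each mean. In the A04 and A01 blocks wild type replicate 2 with ABA dips towards line 1, and in the A08 block the line 1 libraries range from 507 to 979 with ABA.

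The transcripts deposited for each gene were also tested one by one. Of 40695 transcripts, 365 were called, 103 higher and 262 lower, in 356 genes, of which 343 were also called as genes. Among 1168 genes with at least 2 tested transcripts, 12 had a call, and 3 had transcripts called in opposite directions, BnaA04G0076900ZS, BnaA01G0346300ZS and BnaA01G0424300ZS, which are named because they were so few. In BnaA04G0076900ZS the first listed transcript measured 42.3, 39.7 and 42.0 TPM in line 1 and 3.64, 6.91 and 5.21 TPM in wild type (log2 difference 2.79, limma adjusted p = 0.0015). The second measured at most 1.05e-07 TPM in line 1 and 41.3, 30.5 and 36.8 TPM in wild type (log2 difference -5.21, limma adjusted p = 1.4e-05). Line 1 thus listed mainly the first of these transcripts, while wild type listed both and mainly the second. The summed level of the gene differed by 0.01 on the log2 scale (limma adjusted p = 0.982). How well reads can tell these transcripts apart was not tested.

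The knockout of BnNAC038, measured in its own experiment against its own wild type with ABA, shares no library with line 1. It had 471 called genes of 34434 (1.37%). Of the 349 genes called in line 1, 256 were tested there and 27 were called (10.5%). Of these 27, 20 went in the same direction in the knockout as in line 1 and 7 in the opposite direction. BnaA01G0412800ZS, listed at 0 in line 1, was also lower in the knockout, by a log2 difference of -3.49 (limma adjusted p = 1.48e-05). BnaA04G0058400ZS went the opposite way, with -3.33 in line 1 and 2.52 in the knockout (limma adjusted p = 0.0127 in the knockout). Genes next to it by identifier did so too, and such neighbours count as separate genes here.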

How the data were processed

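The authors deposited the overexpression experiment as TPM per transcript, a unit read from the library sums, and the knockout experiment as a normalized signal per gene whose unit is not stated. The submitters' processing notes name kallisto 0.51.1, sleuth 0.30.1, HISAT2 and DESeq2 1.38.3 without roles. Genome build: not given in the sources used here, and likewise the annotation. Per the labels' protocols, TRIzol was used for RNA extraction and the NEBNext Ultra II kit for libraries. TPM holds no read numbers, so depth and counting error are unknown.

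Transcripts were summed to genes and log2(TPM + 1) was tested in R 4.3.3 with limma 3.58.1 and the data.table package (version 1.17.8) (empirical Bayes with a mean trend, two-sided, Benjamini-Hochberg adjusted over all genes tested, threshold 0.05). A test for counts had been planned for a file of counts, and the unit required limma. Differences on this scale understate the change of low genes. Each comparison used its own libraries and genes with at least 1 TPM in at least 3 of them. The knockout block was tested alike, within its own experiment. The fit was run on simulated data in which all libraries of a gene had the same spread. Those data held no uneven wild type group and did not cover the fit with replicate 1 alone. Members and lists were chosen with earlier results of these data known.

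Genes named are the 2 largest differences per direction among calls of 2-fold or more, with a mean of at least 5 TPM in the higher group and groups that do not overlap, for each comparison and list, the 2 highest line-only and wild-type-only genes, and the largest difference of each block. BnaA03G0251500ZS and BnaC07G0447100ZS were added as called interaction genes in which line 1 rose with ABA. Alternatives were another pseudocount (0.1), filters, quantile scaling, array weights, a replicate block, the 27-library fit, replicate 1 alone and each library left out.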

Additional observations from a re-analysis of the deposited data

Results flagged for a closer look

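The response to ABA differed between line 1 and wild type, by the interaction test in limma, in 7 of the genes named above. On the log2(TPM + 1) scale, the response in line 1 minus that in wild type was 3.01 for BnaA06G0012800ZS (limma adjusted p = 0.0379), 2.6 for BnaC01G0226400ZS (limma adjusted p = 0.0467) and 1.09 for BnaA01G0412800ZS (limma adjusted p = 0.0313). It was 2.07 for BnaC07G0447100ZS (limma adjusted p = 0.0379) and 2.02 for BnaA03G0251500ZS (limma adjusted p = 0.0313). It was -3.06 for BnaA04G0056400ZS and -2.42 for BnaC01G0155000ZS (limma adjusted p = 0.0313 each). In BnaC01G0226400ZS and BnaA01G0412800ZS line 1 was listed at 0 in both conditions, so the difference in response was that of wild type alone.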

How the results depend on the processing

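The 349 calls under ABA became 1034 with the 27-library fit, 137 with no filter, 693 with array weights, 560 with wild type replicate 1 alone and 859 with replicate 1 alone in the 25-library fit, and 77 to 439 with 1 library left out. The 7 interaction calls became 17 (27-library fit), 3 (pseudocount 0.1), 25 (array weights), 15 (replicate 1 alone) and 22 (replicate 1 alone, 25-library fit), and 0 to 125 with 1 library left out. With a replicate block, 92 genes were called under ABA and 1 in the interaction. Same-numbered libraries of line 1 and wild type had correlated deviations of 0.116, 0.0248 and 0.0663, and differently numbered ones of -0.105 to 0.0456. The numbers were not taken to pair the libraries, and whether they do was not tested. Untreated calls ranged from 1183 to 1707 and PEG calls from 607 to 1405 with 1 library left out, and PEG calls were 6325 with the 27-library fit. The 560 calls of replicate 1 alone became 1251 with no filter and 125 to 395 with a line 1 library left out. The share called alike untreated was 76.8% with replicate 1 alone, and the ABA-raised median was -0.0194. The standing-gene medians against replicate 1 were 1.91 and -1.80 for a list at 2-fold, an alternative chosen after seeing the data, as were the filter and left-out libraries for replicate 1 alone. BnaC01G0155000ZS, not called under ABA, reversed to 0.12 with replicate 1 alone in either fit. The other genes checked kept their direction under these alternatives, and 78 of their values under ABA and 47 interaction values were no longer past the threshold, while 24 under ABA newly passed it. BnaA03G0251500ZS and BnaC07G0447100ZS were not part of this check. Nor were the genes named for transcripts called in opposite directions, or BnaA04G0242600ZS and BnaC07G0210000ZS. The causes were not tested. Depth is unknown, so differences in low genes cannot be bounded.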
